A study of Mus musculus with 12 samples.

Results

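The Kruppel-like factors (KLFs) described here are Klf2, Klf3, Klf4, Klf6, Klf7, Klf9, Klf10, Klf11, Klf13 and Klf16, 10 of the 54532 genes in the deposited count table, picked by gene symbol. Each symbol matched 1 row, each member had at least 50 counts in every library, and all 10 were among the 14506 genes with enough counts to be tested. The libraries came from resident peritoneal macrophages of C57BL/6 mice, with no other genotype given in the labels. Culture lasted 24 h in DMEM whose buffer was either MOPS or HEPES, and cells were then left untreated or received 10 ng/ml LPS, the bacterial cell-wall ligand of Toll-like receptor 4, for 2 h. This makes 4 groups of 3 libraries: HEPES, MOPS, HEPES with LPS and MOPS with LPS. The design text names pH 6.8 before pH 7.4 and MOPS before HEPES, so MOPS is read as the acidic medium from word order alone, and buffer and pH cannot be told apart. No label used here gives the age of the mice or says whether replicates were separate animals or cultures, so p-values measure only the spread between these libraries, which may be technical.

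KLFs are transcription factors that share C-terminal zinc fingers and bind GC boxes and CACCC boxes, while their divergent N-terminal parts recruit different partners. Klf2, Klf4, Klf6 and Klf7 are mostly activators that work with histone acetyltransferases. Klf3 recruits the corepressor CtBP, and Klf9, Klf10, Klf11, Klf13 and Klf16 recruit the corepressor Sin3A. In myeloid cells Klf2 is known as a brake on inflammatory activation, Klf4 for its part in alternative activation and Klf6 for promoting inflammatory gene expression.

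Library totals were 20114613 to 24734853 counts. The macrophage label was checked against 9 markers (among them Adgre1, Csf1r and Lyz2), none of which was at 0 in any group. Their summed level was 26500 to 27900 CPM in HEPES and 17300 to 17500 in MOPS. With LPS it was 34000 to 35600 CPM in HEPES and 21700 to 24500 in MOPS. Lyz2 made up most of the sum, with means of 22000, 12600, 23300 and 13800 CPM in that order. Cd14 was at 517, 605, 6940 and 4820 CPM. The sum thus follows these genes and is no measure of macrophage content. Of the 9 markers, 3 were called higher and 4 lower in MOPS without LPS (24.3% and 25.4% of all tested genes). With LPS 2 were higher and 4 lower (26.9% and 26.9%). CPM here is a gene's count divided by its library's total count, scaled by TMM (trimmed mean of M-values), and multiplied by 1000000. The summed level of 10 B cell markers was 112 to 187 CPM in HEPES, 219 to 228 in MOPS, 35.4 to 42 in HEPES with LPS and 128 to 143 in MOPS with LPS, and none was at 0. B cell markers differed between the media, with 5 of 10 higher and 1 lower in MOPS without LPS and 9 higher and 1 lower with LPS. B cells also express KLFs, and the part of these transcripts in the member levels was not tested. In bulk RNA, fewer cells of a type and less RNA per cell cannot be told apart.

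Promoter windows of 8 of the 10 members were found in RefSeq (GRCm38.p6), each 300 bases long with 250 before and 50 after the transcription start. The windows of Klf2 and Klf4, which were lower in MOPS, and of Klf11, whose difference between the media was the largest among the members, are shown 5′ to 3′ on the gene's strand. Capitals mark every match, on either strand, to the motifs searched. The CACCC box was searched as CACCC and the GC box as GGGCGG, while the letters of the CCAAT box are its name. The TATA box was searched as TATAAA, the cAMP response element as TGACGTCA, the AP-1 site as TGANTCA and the E-box as CACGTG. The MEF2 site, the serum response factor CArG box and the NF-kappaB consensus are given by name. Neighbouring matches may overlap or run together.
Klf2 chr8:72318812-72319111, plus strand: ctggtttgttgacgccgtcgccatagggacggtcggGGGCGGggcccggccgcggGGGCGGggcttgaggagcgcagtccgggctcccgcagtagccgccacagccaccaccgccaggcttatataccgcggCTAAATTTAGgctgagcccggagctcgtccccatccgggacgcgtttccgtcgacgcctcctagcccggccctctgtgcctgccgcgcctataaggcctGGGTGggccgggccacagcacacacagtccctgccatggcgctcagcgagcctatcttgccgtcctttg
Klf4 chr4:55532426-55532725, minus strand: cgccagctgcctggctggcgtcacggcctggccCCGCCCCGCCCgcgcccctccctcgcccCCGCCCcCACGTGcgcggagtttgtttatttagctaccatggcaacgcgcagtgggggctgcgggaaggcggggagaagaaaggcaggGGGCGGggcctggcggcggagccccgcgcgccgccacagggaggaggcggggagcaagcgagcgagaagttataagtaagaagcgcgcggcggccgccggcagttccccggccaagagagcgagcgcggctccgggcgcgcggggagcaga
Klf11 chr12:24651121-24651420, plus strand: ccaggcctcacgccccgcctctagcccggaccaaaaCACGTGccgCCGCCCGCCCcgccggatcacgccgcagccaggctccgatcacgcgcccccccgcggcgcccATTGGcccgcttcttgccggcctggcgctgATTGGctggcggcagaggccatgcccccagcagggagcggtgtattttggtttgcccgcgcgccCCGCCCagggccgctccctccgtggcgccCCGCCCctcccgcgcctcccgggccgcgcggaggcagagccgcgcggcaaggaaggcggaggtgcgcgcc

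The MEF2 match in the Klf2 window, CTAAATTTAG, begins 118 bases before the start, and MEF2 factors are known to drive Klf2 downstream of the kinase ERK5. It was the only MEF2 match in the 8 windows, and 3.69% of all 32851 windows of this length hold one. An E-box was present in the windows of 3 members, Klf4, Klf6 and Klf11, against 7.15% of all windows. A GC box was in 7 of 8 windows, against 35.7% of all, and a CACCC box in 5 of 8, against 57.5%. The windows of Klf2, Klf4 and Klf11 were 69.3%, 74.3% and 77.7% G or C, above the median of 52.7% over all windows, and motif letters rich in G and C are found more often in such sequence. A CCAAT box was in 4 of 8 windows, against 37.4% of all. No window held the TATA, cAMP response element, CArG or NF-kappaB letters, which 13.6%, 1.79%, 1.63% and 8.46% of all windows hold. The AP-1 letters were in the Klf9 window alone, against 7.81% of all.

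**Figure D1:**
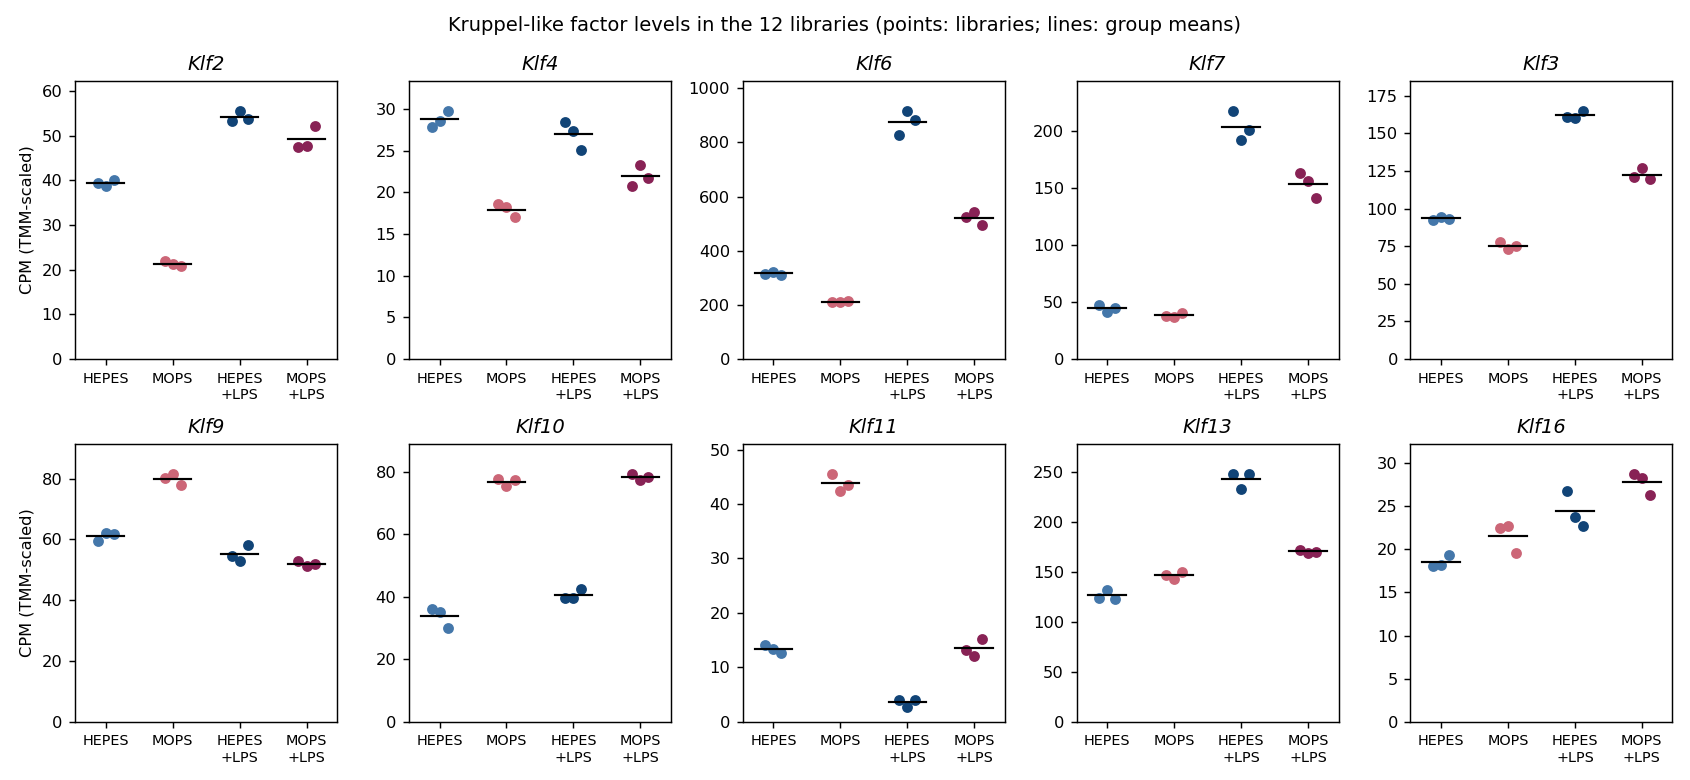
Level of each member in every library, in TMM-scaled CPM (y axis, from 0, a separate scale for each gene) by group (x axis); points are libraries and lines are group means, n = 3. Klf6 reaches 828 to 917 CPM in HEPES with LPS, and Klf11 spans 2.66 to 45.6 CPM over the 12 libraries.

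Without LPS, the members differed between the media in both directions. The activators Klf2, Klf4, Klf6 and Klf7 and the CtBP-binding Klf3 were lower in MOPS than in HEPES, and the Sin3-binding Klf9, Klf10, Klf11, Klf13 and Klf16 were higher. Of the 10, 5 were called higher and 5 lower, and the groups did not overlap in any of them. In this comparison 49.7% of all tested genes were called (edgeR, adjusted p under 0.05), 24.3% higher and 25.4% lower, with 62% called among those with a mean of at least 10 CPM and groups not overlapping for 57.6% of tested genes. The grouping by partner is textbook knowledge applied with the results known, and was not tested. The median log2 difference was -0.63 over the 4 activators and 0.39 over the 5 Sin3-binding members, against -0.01 over all tested genes. With LPS these medians were -0.35 and 0.19, against 0.005 over all tested genes. All 4 activators were again called lower. Of the 5 Sin3-binding members 3 were called higher and 1 lower, with 26.9% of all tested genes called each way.

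Klf11, a TGF-beta-inducible repressor also linked to insulin gene control, differed most. It is ENSMUSG00000020653 on chromosome 12 from 24651274 to 24662789 (build mm10, as for all positions below). Its level was 45.6, 42.4 and 43.4 CPM in MOPS and 14.1, 13.4 and 12.6 CPM in HEPES. After LPS it was 13.1, 12.1 and 15.2 CPM in MOPS and 3.97, 2.66 and 4.06 CPM in HEPES. The MOPS libraries were thus above the HEPES libraries with and without LPS, and LPS-treated MOPS libraries overlapped untreated HEPES libraries. The log2 difference between the media was 1.71 ± 0.08 (SE, 3.27-fold, adjusted p = 1.60e-17, edgeR) without LPS, and 2.78% of tested genes differed by more. With LPS it was 1.91 ± 0.12 (3.76-fold, adjusted p = 3.04e-14), where 2.81% of genes differed by more.

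Klf10, the founding TGF-beta-inducible early gene, also stood higher in MOPS. It is ENSMUSG00000037465 on chromosome 15 from 38291463 to 38300706. Its level was 77.6, 75.5 and 77.4 CPM in MOPS against 36.0, 35.2 and 30.1 CPM in HEPES, a log2 difference of 1.18 ± 0.05 (2.27-fold, adjusted p = 4.66e-18). With LPS it was 79.4, 77.3 and 78.3 CPM in MOPS and 39.6, 39.5 and 42.5 CPM in HEPES, a difference of 0.95 ± 0.06 (1.93-fold, adjusted p = 2.52e-15). The order of its groups was set by the medium, all MOPS libraries lying above all HEPES libraries.

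Klf2 was the most reduced member in untreated MOPS. It is ENSMUSG00000055148 on chromosome 8 from 72319033 to 72321656. Its level was 21.9, 21.3 and 20.9 CPM in MOPS and 39.5, 38.7 and 40.1 CPM in HEPES, a log2 difference of -0.89 ± 0.05 (adjusted p = 9.87e-15). With LPS it was 47.6, 47.8 and 52.3 CPM in MOPS and 53.4, 55.6 and 53.8 CPM in HEPES, a difference of -0.14 ± 0.05 (adjusted p = 0.0199). That smaller difference was not called with library totals as the scale (adjusted p = 0.444) or without a filter on low counts (adjusted p = 0.0776), with 0.00523 to 0.444 over all alternatives, nor in the authors' deposited table (adjusted p = 0.135).

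Klf4, also a pluripotency factor, was likewise lower in MOPS than in HEPES, though its 4 groups did not have the order of those of Klf2. It is ENSMUSG00000003032 on chromosome 4 from 55527143 to 55532466. Its level was 18.6, 18.2 and 17 CPM in MOPS and 27.9, 28.6 and 29.8 CPM in HEPES (log2 difference -0.68 ± 0.07, adjusted p = 3.97e-10). After LPS the levels were 20.8, 23.3 and 21.7 CPM in MOPS and 28.4, 27.4 and 25.1 CPM in HEPES (-0.30 ± 0.07, adjusted p = 5.95e-04). The media stayed apart in both states.

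Klf6 had the highest level per kilobase of the 10 in each group. It is ENSMUSG00000000078 on chromosome 13 from 5861482 to 5870394. Its level was 210, 210 and 215 CPM in MOPS and 315, 321 and 312 CPM in HEPES, a log2 difference of -0.58 ± 0.04 (adjusted p = 2.27e-13). With LPS it was 526, 543 and 495 CPM in MOPS and 828, 917 and 882 CPM in HEPES, a difference of -0.75 ± 0.04 (adjusted p = 2.61e-16). The 4 groups did not overlap, with LPS above no LPS and, within each, HEPES above MOPS. Klf2, Klf3 and Klf7 had that order too.

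Klf7 and Klf3 differed less between the media. Klf7, known for its role in neuron development, spanned 36.7 to 40.7 CPM in MOPS and 41.4 to 47.8 CPM in HEPES (-0.22 ± 0.07, adjusted p = 0.00694). With LPS it spanned 141 to 163 CPM in MOPS and 192 to 218 CPM in HEPES (-0.40 ± 0.06, adjusted p = 3.17e-06). Klf3, a repressor with roles in fat and B cell development, spanned 73.2 to 77.5 CPM against 92.7 to 94.7 CPM (-0.31 ± 0.04, adjusted p = 1.27e-07) without LPS and 120 to 127 CPM against 160 to 165 CPM (-0.40 ± 0.04, adjusted p = 5.19e-10) with it. Klf7 is ENSMUSG00000025959 on chromosome 1 from 64029447 to 64122282 and Klf3 is ENSMUSG00000029178 on chromosome 5 from 64803388 to 64832901. Overlapping annotated genes held at most 1.31% of a member's count (C230096K16Rik within Klf3).

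Klf13 and Klf9 were the members whose medium difference was not the same way with LPS. Klf13, first described as a factor of late Ccl5 expression in T cells, is ENSMUSG00000052040 on chromosome 7 from 63886351 to 63938915. Its level was 147, 143 and 150 CPM in MOPS and 124, 132 and 123 CPM in HEPES (0.21 ± 0.04, adjusted p = 4.76e-05). With LPS it was 172, 169 and 170 CPM in MOPS and 248, 233 and 248 CPM in HEPES (-0.52 ± 0.04, adjusted p = 1.90e-12). MOPS libraries were thus above HEPES libraries before LPS and below them after it. Klf13 was the only member called in opposite directions in the 2 states.

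Klf9, a target of the glucocorticoid receptor, is ENSMUSG00000033863 on chromosome 19 from 23141226 to 23166911. Its level was 80.1, 81.7 and 77.8 CPM in MOPS and 59.5, 62.2 and 61.9 CPM in HEPES, a difference of 0.39 ± 0.05 (adjusted p = 1.72e-08). With LPS it was 52.8, 51.1 and 51.8 CPM in MOPS and 54.5, 52.8 and 58.2 CPM in HEPES, a difference of -0.09 ± 0.05 (95% interval -0.20 to 0.03, adjusted p = 0.132). The Klf9 groups with LPS did not overlap, although 1 library of each rounds to 52.8 CPM, and the difference did not pass the test. It passed on leaving out MOPS with LPS replicate 7, with an adjusted p of 0.0295, and likewise for HEPES with LPS replicates 10 and 11, at 0.035 and 0.0156. With library totals as the scale it turned to 0.004, and the adjusted p ran from 0.0156 to 0.959 over the alternatives.

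Klf16, a factor first tied to dopamine receptor genes, is ENSMUSG00000035397 on chromosome 10 from 80567124 to 80577321. It spanned 19.6 to 22.7 CPM in MOPS and 18.1 to 19.3 CPM in HEPES (0.23 ± 0.07, adjusted p = 0.0105), a call that did not survive leaving out MOPS replicate 1 or 2, at adjusted p of 0.0509 and 0.0702. With LPS it spanned 26.3 to 28.8 CPM in MOPS and 22.7 to 26.8 CPM in HEPES, which overlap (0.19 ± 0.07, adjusted p = 0.0336). Leaving out replicate 7 or 8 of MOPS with LPS ended that call, at adjusted p of 0.25 and 0.196, as did leaving out replicate 11 or 12 of HEPES with LPS, at 0.224 and 0.372. It was also lost with RLE size factors (adjusted p = 0.0506) and in DESeq2 (adjusted p = 0.108), and was absent from the calls in the authors' deposited table (adjusted p = 0.117). Across the alternatives it ranged from 0.00258 to 0.0702 without LPS and from 0.00201 to 0.372 with it.

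In all, MOPS with LPS had 3 members higher and 6 lower, with 53.8% of all tested genes called in that comparison, 26.9% higher and 26.9% lower, and 69.3% called among those with a mean of at least 10 CPM. Groups did not overlap for 9 members, all but Klf16, against 58.8% of tested genes. The same direction was called with and without LPS in 8 members. Among them, Klf2 and Klf16 lost the call with LPS under some alternatives and lack it in the authors' deposited table. How many of all tested genes were called the same way, or in opposite ways like Klf13, was not counted. In the authors' deposited table the sign was that of the present fit in 40 of 40 values over the members and its 4 comparisons, and the call differed in 3.

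**Figure D2:**
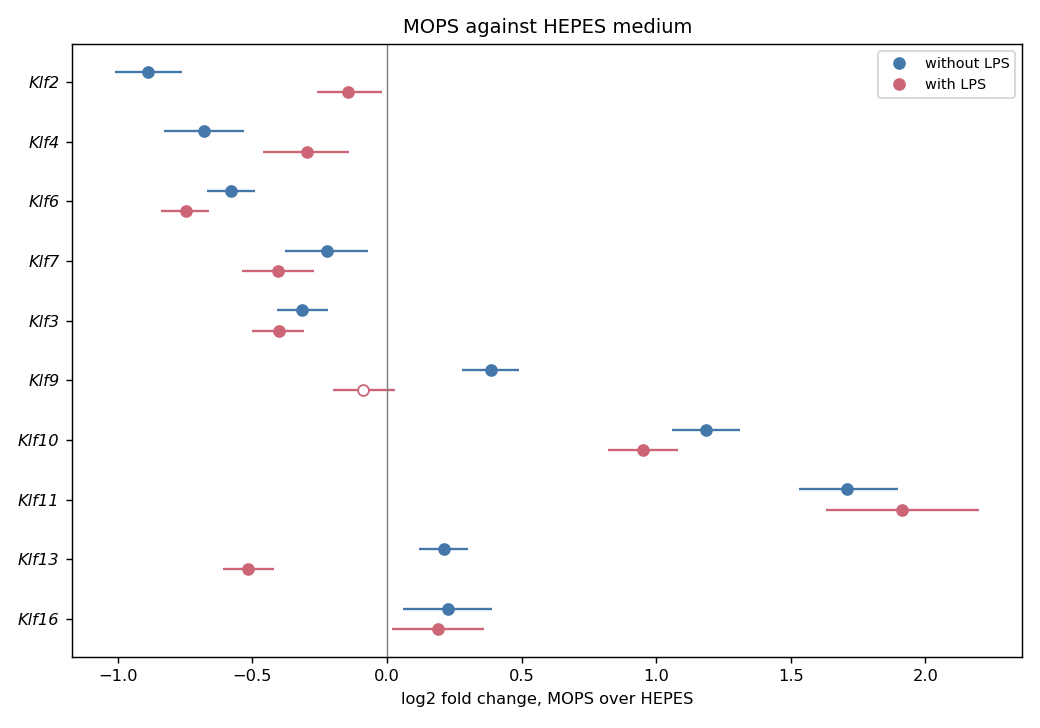
Log2 fold change of MOPS over HEPES (x axis) for each member (y axis), without and with LPS; bars are approximate 95% intervals from the standard error with 8 residual degrees of freedom, and open points did not pass the test. Klf13 lies at 0.21 without LPS and at -0.52 with it, while Klf11 lies at 1.71 and 1.91.

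The LPS comparisons use the same libraries as the comparisons of media. The change after LPS was largest for Klf7, Klf11 and Klf6. Klf7 rose by 2.01 ± 0.06 on the log2 scale in MOPS (4.02-fold, adjusted p = 5.86e-18) and 2.19 ± 0.06 in HEPES (4.55-fold, adjusted p = 4.49e-19). Klf6 rose by 1.3 ± 0.04 in MOPS (adjusted p = 5.60e-23) and 1.47 ± 0.04 in HEPES (adjusted p = 1.07e-24). Klf3 rose by 0.71 ± 0.04 in MOPS and 0.79 ± 0.04 in HEPES. Klf11 fell by 1.71 ± 0.08 in MOPS (adjusted p = 1.09e-17) and by 1.91 ± 0.12 in HEPES (adjusted p = 2.60e-15). Klf11 was the lowest of the 10 per kilobase in HEPES with and without LPS and in MOPS with LPS. These 4 members and Klf9 kept their direction under all the scalings tried, but not their size. With library totals in place of TMM, Klf6 was at 0.788 in MOPS and 0.884 in HEPES and Klf3 at 0.192 and 0.209, all still called higher.

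The smaller LPS changes rested on the scale. Scaling by library totals in place of TMM moved the median over all tested genes from -0.035 to -0.547 in MOPS and from -0.084 to -0.669 in HEPES, so the changes given here are relative to the TMM scale. The share of called genes that were higher went from 49.4% to 18% in MOPS and from 46.3% to 20.6% in HEPES. It went from 50% to 62.4% for the media with LPS and from 55.5% to 66.4% for the difference between LPS changes. Klf2 rose by 1.2 ± 0.06 in MOPS (adjusted p = 1.16e-18, at 0.691 with totals) and by 0.46 ± 0.05 in HEPES (adjusted p = 1.58e-09), the latter turning to -0.125 with totals. Klf13 rose by 0.21 ± 0.04 in MOPS, which turned to -0.3 with totals, and by 0.94 ± 0.04 in HEPES, which was 0.356 with totals. Klf16 was called higher in MOPS (0.36 ± 0.07, turning to -0.149 with totals) and in HEPES (0.40 ± 0.07, turning to -0.183). Klf4 was at 0.29 ± 0.07 in MOPS (adjusted p = 6.01e-04, turning to -0.225) and did not pass in HEPES on the TMM scale (-0.09 ± 0.07, adjusted p = 0.194), where with totals it was called lower at -0.679 (adjusted p = 9.48e-11). Klf10 did not pass in MOPS on the TMM scale (0.03 ± 0.05, adjusted p = 0.647), where with totals it was called lower at -0.486 (adjusted p = 3.97e-10), and it was at 0.26 ± 0.06 in HEPES (adjusted p = 1.55e-04, turning to -0.322).

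Klf9 fell by 0.62 ± 0.05 in MOPS (adjusted p = 3.85e-13) and by 0.15 ± 0.05 in HEPES (adjusted p = 0.00586). With library totals the values were -1.137 and -0.734, both called. The call in HEPES was lost without HEPES with LPS replicate 10 (adjusted p = 0.111) or 11 (adjusted p = 0.205), in DESeq2 (adjusted p = 0.0572) and with the 2 groups fitted alone (adjusted p = 0.0566), with 3.98e-15 to 0.205 over all alternatives, and it is not among the calls of the authors' deposited table (adjusted p = 0.194). In each medium 7 members were called higher and 2 lower after LPS, 6 of them higher in both media and 2 lower in both. How many of all tested genes were called the same way in both media was not counted. In MOPS 69% of all tested genes were called, 34.1% higher and 34.9% lower, and in HEPES 76.9% were called, 35.6% higher and 41.2% lower. Among genes with a mean of at least 10 CPM 80.7% were called in MOPS and 85.4% in HEPES. With totals the counts became 4 higher and 5 lower in MOPS and 4 higher and 6 lower in HEPES. Of the 14506 tested genes, totals gave 2084 higher and 9506 lower in MOPS, and 2502 higher and 9666 lower in HEPES. Groups did not overlap for 9 members in each medium, against 71.8% and 78.4% of tested genes.

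**Figure D3:**
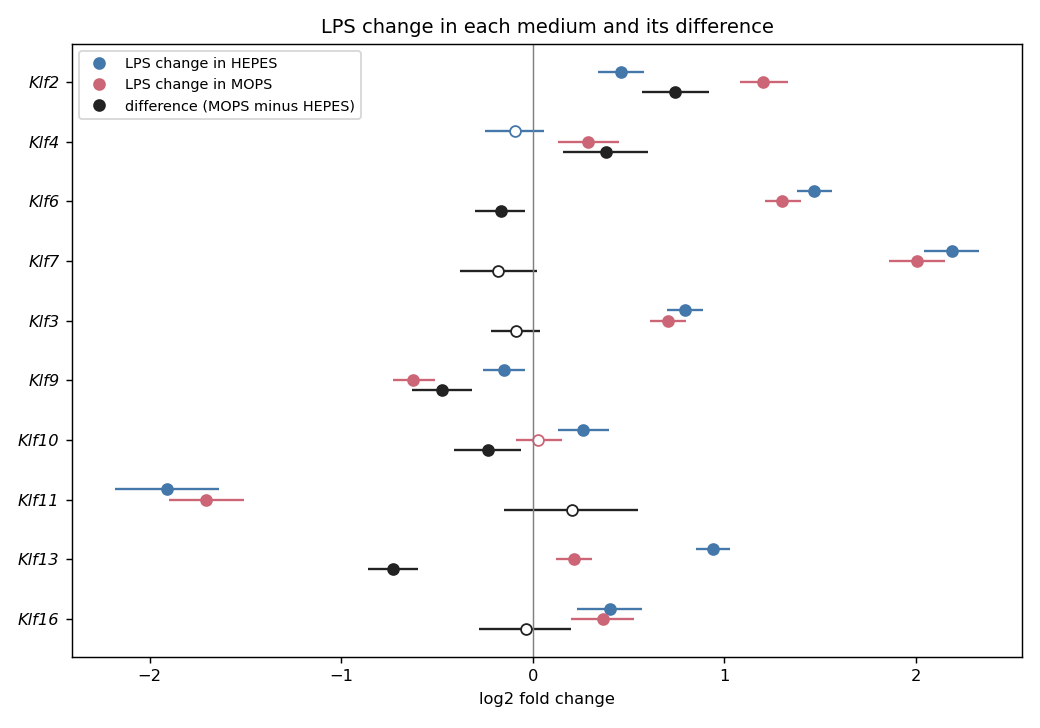
Log2 change after LPS in HEPES and in MOPS, and their difference (x axis), for each member (y axis), on the TMM scale; bars are approximate 95% intervals and open points did not pass the test. The difference is 0.74 for Klf2 and -0.73 for Klf13; with library totals the LPS change turns sign for Klf2, Klf10 and Klf16 in HEPES and for Klf4, Klf10, Klf13 and Klf16 in MOPS.

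Whether LPS acted on a member to a like extent in the 2 media was tested by subtracting the LPS change in HEPES from the one in MOPS. Of the 10 members 6 were called, 2 higher and 4 lower, with 39.4% of all tested genes called, 21.9% higher and 17.6% lower, and 56.1% of those with a mean of at least 10 CPM. On the TMM scale Klf2 rose more in MOPS (0.74 ± 0.08, adjusted p = 2.48e-09), and Klf13 rose less there (-0.73 ± 0.06, adjusted p = 1.22e-11). With library totals the LPS change of Klf2 in HEPES was -0.125 and that of Klf13 in MOPS was -0.3. The difference was -0.47 ± 0.07 for Klf9 (adjusted p = 1.03e-06) and 0.38 ± 0.10 for Klf4 (adjusted p = 0.00191). These 4 differences were called with the same sign in all 18 alternatives of this contrast.

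The other calls were less firm. Klf6 was at -0.17 ± 0.06 (adjusted p = 0.0193), and the call ended on leaving out MOPS replicate 3, at an adjusted p of 0.05, or MOPS with LPS replicate 9, at 0.0773, and with library totals, at 0.187, with 4.18e-04 to 0.187 over all alternatives. Without HEPES with LPS replicate 10 it was -0.254. Klf10 was at -0.23 ± 0.08 (adjusted p = 0.0156), and the call ended on leaving out HEPES replicate 6, at an adjusted p of 0.0823, and with library totals, at 0.0888, with 0.00381 to 0.0888 over all alternatives. Klf7 (95% interval -0.38 to 0.02), Klf3 (-0.22 to 0.04), Klf11 (-0.15 to 0.55) and Klf16 (-0.28 to 0.20) did not pass. Klf7 passed on leaving out HEPES replicate 4, MOPS with LPS replicate 7 or HEPES with LPS replicate 11, at adjusted p of 0.0437, 0.0111 and 0.019, within 0.0111 to 0.354 over the alternatives. Klf3 passed on leaving out MOPS with LPS replicate 8, at 0.0367, within 0.0367 to 0.857.

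Levels can be compared between genes only per length, as RPKM (CPM divided by the gene length in kilobases, on the TMM scale). Summed over the 17 genes with a Klf symbol from the lists used here, the level was 173 ± 1.73 RPKM (SD, n = 3) in HEPES, 159 ± 1.15 in MOPS, 347 ± 7.11 in HEPES with LPS and 254 ± 5.70 in MOPS with LPS. Klf6 made up 41.4% to 41.8% of this sum in HEPES and 29.7% to 30.8% in MOPS. With LPS it made up 55.6% to 59.2% in HEPES and 45.6% to 47.9% in MOPS. These shares do not depend on the scale of the library, and none of the 4 ranges overlap. Klf11 made up 6.14% to 6.54% in MOPS, 1.69% to 1.89% in HEPES, 1.08% to 1.41% in MOPS with LPS and 0.174% to 0.27% in HEPES with LPS.

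The order of the members by RPKM changed with the medium. In MOPS the levels were 48.2 RPKM for Klf6, 24.5 for Klf9, 19.5 for Klf13, 18.4 for Klf10 and 11.5 for Klf2, and no neighbours in the order of all 10 overlapped. In HEPES they were 72.1 RPKM for Klf6, 21.4 for Klf2, 18.8 for Klf9 and 16.8 for Klf13, while Klf10 at 8.08 overlapped Klf3 at 8.32 and Klf16 at 6.92. In HEPES with LPS, Klf6 at 199 RPKM was followed by Klf13 at 32.3, Klf2 at 29.4 and Klf7 at 25.0. In MOPS with LPS, Klf6 at 119 RPKM was followed by Klf2 at 26.6, Klf13 at 22.6 and Klf7 at 18.9, which overlapped Klf10 at 18.7.

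**Figure D4:**
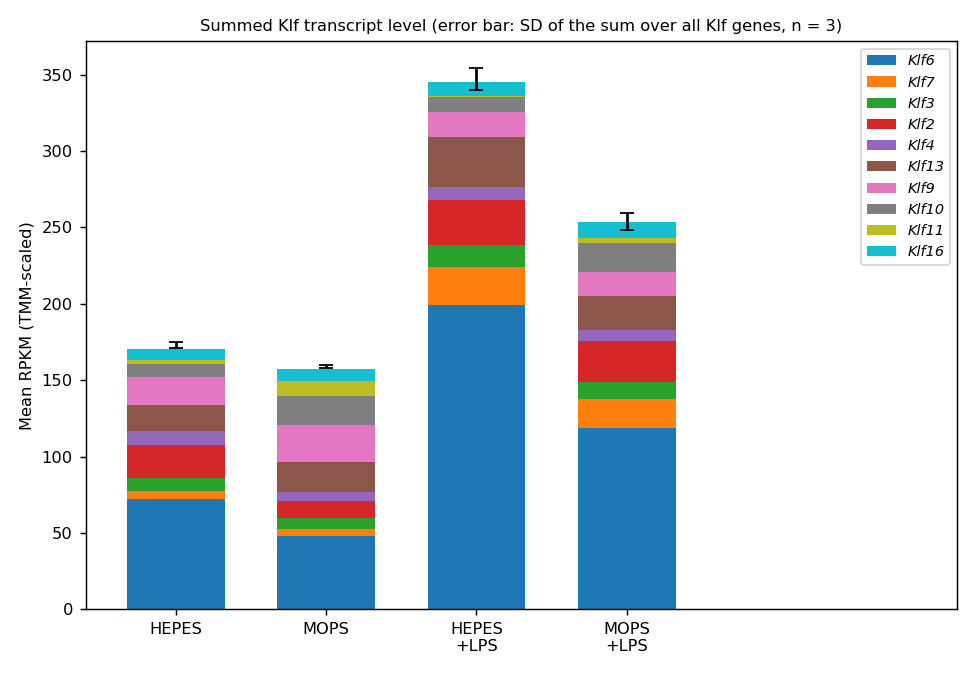
Mean RPKM of the 10 members stacked by group (y axis, from 0; x axis, the 4 groups); the error bar is the SD, over 3 libraries, of the sum over 17 Klf genes, whose mean lies just above the stack. The Klf6 segment is 48.2 RPKM in MOPS and 199 RPKM in HEPES with LPS.

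Of 16 other genes of the KLF and SP family, 8 had enough counts to be tested. Klf15, a glucocorticoid-induced metabolic regulator, fell after LPS from 3.22 ± 0.537 to 0.084 ± 0.0745 CPM in MOPS (log2 change -5.16 ± 0.41, adjusted p = 1.18e-12) and from 4.72 ± 0.56 to 0.127 ± 0.126 CPM in HEPES (-5.16 ± 0.36, adjusted p = 4.04e-14), with 5 and 7 counts in all left in the LPS groups, so the fitted size depends on the prior count. Without LPS 3 of the 8 were higher in MOPS and 3 lower. Sp1 (0.21 ± 0.04), Sp3 (0.18 ± 0.04) and Sp4 (0.44 ± 0.10), GC-box factors of the related SP family, were the 3 that were higher, while Klf12 (-1.43 ± 0.32), a CtBP-binding relative of Klf3, was lower. With LPS 1 of the 8 was higher and 3 were lower. For this list and those below, 49.7% of all tested genes were called between the media without LPS and 53.8% with it.

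Genes of the pathway that leads to Klf2 and Klf4, from the kinases MEKK2, MEKK3, MEK5 and ERK5 to the MEF2 factors, differed both ways. Only transcripts were measured, not kinase activity, and a link to Klf2 or Klf4 was not tested. Of 7 tested, MOPS without LPS had 3 higher and 2 lower, with a median log2 difference of 0.07 against -0.01 over all genes. Mef2d (0.46 ± 0.04), Map3k2 (0.31 ± 0.04) and Map3k3 (0.20 ± 0.04) were higher and Mef2c (-0.45 ± 0.05) was lower. With LPS it had 5 higher and 1 lower, with Mef2c at 1.08 ± 0.09 after falling by 1.44 ± 0.07 in MOPS and by 2.97 ± 0.07 in HEPES. Mapk7, which encodes ERK5, fell by 1.03 ± 0.07 in MOPS and by 0.82 ± 0.07 in HEPES after LPS. Mef2a rose by 1.14 ± 0.04 in MOPS and by 1.19 ± 0.04 in HEPES. In each medium 1 of the 7 was called higher after LPS and 5 lower. Of all tested genes 34.1% were higher and 34.9% lower in MOPS, and 35.6% and 41.2% in HEPES.

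Among 11 genes for corepressors and coactivators of KLFs, MOPS without LPS had 5 higher and 2 lower. That is near the 62% called among all genes with a mean of at least 10 CPM. Sin3a, the scaffold that the Sin3-binding members recruit, had a mean of 74.4 ± 2.21 CPM (SD) for MOPS against 51.5 ± 0.862 CPM for HEPES (0.53 ± 0.04, adjusted p = 2.01e-11), and with LPS at 60.9 ± 2.18 CPM and 44.6 ± 0.603 CPM (0.45 ± 0.05, adjusted p = 2.93e-09). Hdac1, a deacetylase of the Sin3 complex, was lower (-0.36 ± 0.05), and the acetyltransferase gene Ep300 was higher (0.32 ± 0.04). With LPS 2 of the 11 were higher and 5 lower. Kat2b was at 0.54 ± 0.06, and Ctbp2, which Klf3 recruits, was at -0.42 ± 0.05.

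Of 7 TGF-beta and SMAD genes, 1 was higher (Smad4, 0.23 ± 0.04) and 2 lower (Tgfbr2, -0.20 ± 0.04, and Tgfb1, -0.09 ± 0.04) in MOPS without LPS. A link of these transcripts to Klf10 or Klf11 was not tested. Tgfb1, the ligand, had means of 313 ± 9.04 CPM (SD) for MOPS against 334 ± 8.70 CPM for HEPES, and of 971 ± 39.9 and 1400 ± 13.5 CPM after LPS. Of 6 genes of the glucocorticoid response, which also drives Klf9, MOPS without LPS had 2 higher and 2 lower, with Per1 at 0.99 ± 0.05, Fkbp5 at 0.23 ± 0.07, Tsc22d3 at -0.72 ± 0.07 and Zbtb16 at -0.68 ± 0.15.

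Of 9 textbook targets of Klf2, Klf4 and Klf6, 8 were tested, and 3 were higher and 4 lower in MOPS in each state. Without LPS, Arg1 was higher (3.75 ± 0.14), and Pparg (-1.65 ± 0.10), Mrc1 (-0.77 ± 0.06) and Retnla (-0.51 ± 0.07) were lower, all 4 being genes of alternative activation. For the difference between LPS changes, 3 of the 8 were called higher and 1 lower, against 21.9% and 17.6% of all tested genes. These were S1pr1, a lipid receptor gene (0.92 ± 0.06, adjusted p = 3.79e-13), Thbd, which encodes thrombomodulin (2.42 ± 0.27, adjusted p = 6.93e-06), Pparg (0.94 ± 0.17, adjusted p = 5.44e-05) and Cdkn1a (-0.58 ± 0.06, adjusted p = 9.09e-10). S1pr1 had means of 286 ± 5.10 CPM for MOPS with LPS and 137 ± 7.77 CPM for HEPES with LPS, against 143 ± 5.61 and 130 ± 4.52 CPM without LPS. Thbd and Pparg fell after LPS in both media, so higher here means a smaller log2 fall in MOPS. Mean Thbd went from 26 to 5.28 CPM in MOPS and from 60.1 to 2.27 CPM in HEPES. Mean Pparg went from 6.02 to 2.98 CPM in MOPS and from 18.9 to 4.92 CPM in HEPES. Cdkn1a rose in both media, from 196 to 952 CPM in MOPS and from 170 to 1230 CPM in HEPES. A link of these transcripts to Klf2, Klf4 or Klf6 was not tested.

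The genes most like a member in pattern were sought for Klf13, Klf2 and Klf9, which had the smallest p for the difference between LPS changes, among 7957 protein-coding genes with a mean of at least 10 CPM. Pearson's r of log2 CPM over the 12 libraries, which share depth and the same 4 groups, was 0.993 for Fam8a1, 0.992 for Slc38a2 and 0.991 for Rexo4 with Klf13. It was 0.990 for Apobr, 0.989 for Fgfr1 and 0.988 for Sem1 with Klf2, and 0.984 for Trib3, 0.983 for Abhd10 and 0.972 for Ern1 with Klf9. Slc38a2 had means of 148 CPM for MOPS, 133 for HEPES, 171 for LPS-treated MOPS and 241 for LPS-treated HEPES. Trib3, a stress-induced pseudokinase gene, had means of 79.3, 40.4, 29.8 and 36.7 CPM in the same order.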

How the data were processed

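RNA-seq was done on 12 libraries of mouse peritoneal macrophages, 3 in each of 4 groups. The labels' extraction protocol names Trizol and the NEBNext Ultra RNA kit. Per the submitters' processing notes, CASAVA 1.8, HISAT2 2.0.5, featureCounts 1.5.0-p3 and build mm10 were used, with no roles stated. The sources used here do not state the strand setting or annotation release. The authors deposited raw counts per gene and library, per the file headers, and these were analysed. The deposited FPKM values were not used. The authors' deposited log2 fold changes and adjusted p-values for 4 comparisons, untreated over LPS where LPS is compared, were copied with the sign turned to LPS over untreated.

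In R 4.3.3, edgeR 4.0.16 was run on the counts with filterByExpr (14506 of 54532 genes kept), TMM scaling (factors 1.19 to 1.22 untreated, 0.8 to 0.863 with LPS), a means model of the 4 groups over all libraries and the robust quasi-likelihood F test. Benjamini-Hochberg adjustment ran over all tested genes, and calls have adjusted p under 0.05. Standard errors were approximated from the fold change and its F statistic. The alternatives were DESeq2 1.42.0, RLE factors, library totals, no filter, at least 1 CPM in 3 libraries, a non-robust fit, the 2 groups alone and leaving out each library. Pairs of libraries within groups had chi-square values of 2.66 to 6.54 times their degrees of freedom, above counting noise. The members, the functional lists (other KLF and SP genes, ERK5-MEF2, cofactors, TGF-beta-SMAD, glucocorticoid response, targets) and the marker lists were chosen with earlier results of these data known. The named genes are all members, up to 4 genes of each functional list per contrast by smallest p, and 3 genes most like each of 3 members. Coordinates are those of the table. 9 of 10 members have the same coordinates in GENCODE vM21, and Klf9 ends elsewhere.

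Summed marker levels of other cells were low: 8 T and NK cell genes came to 1.17 to 4.31 CPM over all libraries with Ncr1 at 0 in every group. The 8 granulocyte and mast cell genes summed to 17.8 to 33.9 CPM with Ly6g and Retnlg at 0, the 5 dendritic cell genes to 26.7 to 52 CPM, and the 9 mesothelial, stromal and endothelial genes to 6.32 to 9.56 CPM.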

Additional observations from a re-analysis of the deposited data

Results flagged for a closer look

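For 6 members the LPS change differed between the media by the interaction test of edgeR, given as the log2 change in MOPS minus that in HEPES. The value was 0.74 for Klf2 and 0.38 for Klf4, with larger values in MOPS. It was -0.17 for Klf6, -0.47 for Klf9, -0.23 for Klf10 and -0.73 for Klf13. Of all tested genes 39.4% were called in this contrast.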

How the results depend on the processing

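Of 940 values of the 50 member results under 19 alternatives, 900 kept their direction and side of the threshold, 19 lost the call, 8 gained it and 13 changed sign. With library totals in place of TMM, the members called after LPS were 4 higher and 5 lower in MOPS and 4 higher and 6 lower in HEPES. In the interaction 2 were called lower. The TMM factors were above 1 without LPS and below 1 with it. Of 14506 tested genes, totals gave 2084 higher and 9506 lower in MOPS, and 2502 higher and 9666 lower in HEPES. For the interaction they gave 3891 higher and 1972 lower. Sign changes with totals were Klf9 between the media with LPS (0.004), Klf4 (-0.225), Klf10 (-0.486), Klf13 (-0.3) and Klf16 (-0.149) after LPS in MOPS, Klf2 (-0.125), Klf10 (-0.322) and Klf16 (-0.183) after LPS in HEPES, and Klf16 in the interaction (0.034). Klf4 after LPS in HEPES was called lower with totals (-0.679), as was Klf10 in MOPS. Without a filter Klf10 after LPS in MOPS was -0.01. Without single libraries, Klf4 after LPS in HEPES ran from -0.12 to 0.001 (HEPES with LPS replicate 12), and in the interaction Klf16 ran from -0.138 to 0.002 (MOPS replicate 2) and Klf11 from -0.019 (HEPES with LPS replicate 11) to 0.255. The count of members lower after LPS in HEPES was 1 in DESeq2, 1 with the 2 groups alone, and 1 to 2 on leaving out each library. For the rest the cause was not tested. No paired analysis was possible because the replicate numbers 1 to 12 are not shared between groups. The lowest count of a member in a library was 50 (Klf11), so counting error is largest there.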

Other observations

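Across the 12 libraries, which share depth and the same 4 groups, log2 CPM of Klf6 and Klf3 correlated with a Pearson r that rounds to 1, Klf7 with each of them at 0.95, and Klf2 with Klf9 at -0.96. Klf10 correlated with Klf4 at -0.90 and with Klf7 at -0.01.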
